A study of Mus musculus with 3 samples.

Results

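The solute carriers described here are all measured genes whose symbol starts with Slc and a family number, apart from the mitochondrial Slc25 family. There were 229 such genes of 12394 genes measured, with 354 probe sets, in 48 families. The rule took Slc9a3r1, Slc9a3r2 and Slc4a1ap as well, which are named after a carrier they bind or adjoin and are not carriers themselves. Solute carriers are membrane proteins that move sugars, amino acids, ions, metals, vitamins and nucleotide sugars across the plasma membrane and across the membranes of organelles. They carry no ATPase of their own: uniporters let a solute run down its gradient, while cotransporters and exchangers couple it to sodium, protons, chloride or a second solute. In skeletal muscle they are known for insulin-driven glucose uptake, for lactate export and uptake, and for the supply of creatine, carnitine, taurine and amino acids to the fibre.

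RNA levels came from 3 arrays of normal muscle from littermate controls of a mouse tumour study, 3 to 6 weeks old, named muscle 1, 2 and 3 and given in that order throughout. The labels give no strain, no muscle of origin and no genotype beyond littermate control. They describe a hindlimb injection of 4-hydroxytamoxifen for mice that grew tumours, and do not say whether these controls received it. Nor do they say that the muscles came from separate animals, so an SD or p describes how far these arrays differ, and that difference may be technical. There was 1 group and no contrast between conditions, so the data show which carriers were measurable in muscle and how far their levels varied between muscles. Levels are log2 RMA values, means carry the SD over the 3 muscles (n = 3), and with 3 arrays the precision is low.

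A gene was taken at its probe set with the highest mean and called detected where it exceeded a background level, the 95th percentile over 100 probe sets for 75 genes restricted to other organs, which was 5.29, 5.33 and 5.57. Probe sets bind with different strength, so the levels of different genes are not ranked. The labelled tissue was borne out by its markers: all 14 skeletal fibre genes were detected in every muscle, with a widest range of 0.07. The tissue held other cells too, since 11 of 11 endothelial, 5 of 6 adipocyte, 7 of 8 macrophage, 5 of 5 Schwann cell and 1 of 6 erythroid genes were detected in all 3 muscles. In whole tissue, fewer cells of a type and less RNA per cell cannot be told apart.

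Of the 229 solute carrier genes, 116 (50.7%) were detected in all 3 muscles, against 65.0% of all 12394 genes. Another 97 (42.4%) were below background in every muscle, against 29.5% of all genes, and 16 were above it in 1 or 2 muscles. The Slc25 carriers of the mitochondrion, which the rule left out, were detected in 29 of 33 cases. Detection depended on where the background level was set. Above the 99th percentile of the same background probe sets, which was 6.31, 6.57 and 6.69, lay 72 of the 229 genes in all 3 muscles, against 6151 of the 12394 genes. The mean margin over background was under 0.5 for 10 of the 116 detected genes, from 0.5 to 1 for 18, from 1 to 2 for 42, from 2 to 4 for 35 and 4 or more for 11. Those 11 were Slc2a4, Slc12a2, Slc16a1, Slc20a2, Slc30a9, Slc37a4, Slc38a2, Slc38a4, Slc38a10, Slc39a1 and Slc44a2.

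**Figure D1:**
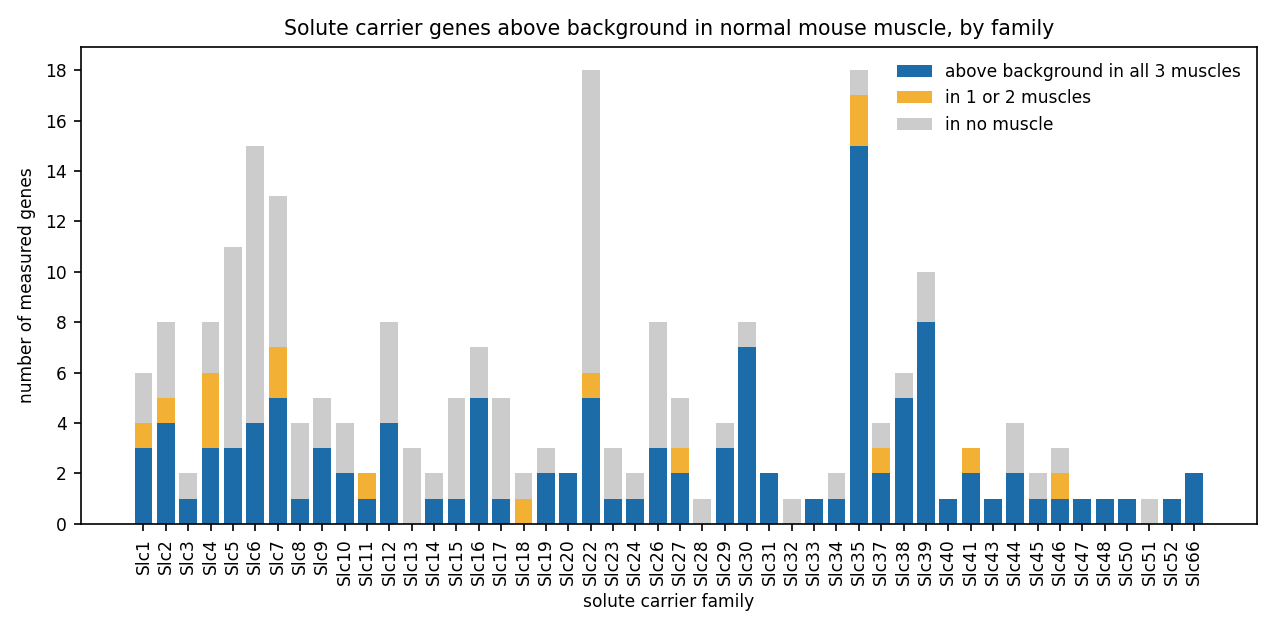
Number of measured solute carrier genes in each family, split into those above background in all 3 muscles (blue), in 1 or 2 muscles (yellow) and in no muscle (grey). Slc35 (15 of 18), Slc39 (8 of 10) and Slc30 (7 of 8) were largely detected, whereas Slc22 (5 of 18), Slc6 (4 of 15) and Slc5 (3 of 11) were largely below background.

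Detection differed widely between families. Sorted by the best known substrate of their family, 15 of 18 zinc carriers and 15 of 18 nucleotide sugar carriers were detected in all 3 muscles, as were 6 of 8 carriers of iron, copper and magnesium and 5 of 7 monocarboxylate carriers. For amino acids the count was 17 of 31 and for sugars 11 of 26. It was 8 of 27 for organic ions, bile acids and di- and tricarboxylates, 5 of 22 for creatine, taurine and neurotransmitters and 1 of 5 for peptides. In 10 families every measured member was detected in all 3 muscles, and in 4 families, Slc13, Slc28, Slc32 and Slc51, none was above background in any muscle. Of those 10 families 7 had a single measured gene and the other 3 had 2 each.

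Detected carriers had more CpG in their promoters than carriers below background, a feature that the choice of genes did not use. Vertebrate promoters fall broadly into those rich in CpG, common at genes active in many tissues, and those poor in it, common at tissue-restricted genes. RefSeq sequences of GRCm38.p6 covered 180 of the 229 genes, at the first listed start of each. In the 250 bases before the start, the ratio of observed to expected CpG had a median of 0.679 in the 88 detected genes (quartiles 0.513 and 0.825) and of 0.342 in the 78 genes below background throughout (0.155 and 0.540). A ratio of at least 0.6 was found in 63.6% of the detected carriers and in 19.2% of those below background. Over all measured genes with a promoter the shares were 69.6% of 6532 detected genes and 29.4% of 2810 genes below background, so the carriers followed a difference that all genes showed, and nothing in it was tested as particular to them.

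Below are 6 of these promoters, each the 250 bases before the start, 5′ to 3′ on the strand of the gene, with every CpG in capitals. They were chosen after the values were seen, to set side by side 3 detected carriers of lactate and amino acids and 3 carriers of liver and kidney that were below background.
Slc16a1 (GRCm38.p6 chr3:104638414-104638663, plus strand): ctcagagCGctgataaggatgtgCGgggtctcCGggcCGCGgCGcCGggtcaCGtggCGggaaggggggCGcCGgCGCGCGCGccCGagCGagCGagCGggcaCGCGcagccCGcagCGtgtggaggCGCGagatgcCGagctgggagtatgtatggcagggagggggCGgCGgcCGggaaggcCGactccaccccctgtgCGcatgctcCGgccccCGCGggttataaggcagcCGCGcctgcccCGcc
Slc16a3 (GRCm38.p6 chr11:120948817-120949066, plus strand): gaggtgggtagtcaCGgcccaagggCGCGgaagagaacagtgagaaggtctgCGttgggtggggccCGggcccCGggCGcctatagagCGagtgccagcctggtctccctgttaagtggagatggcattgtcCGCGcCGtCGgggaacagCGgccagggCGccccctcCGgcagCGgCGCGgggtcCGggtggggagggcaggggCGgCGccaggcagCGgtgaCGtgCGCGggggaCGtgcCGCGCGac
Slc38a2 (GRCm38.p6 chr15:96699729-96699978, minus strand): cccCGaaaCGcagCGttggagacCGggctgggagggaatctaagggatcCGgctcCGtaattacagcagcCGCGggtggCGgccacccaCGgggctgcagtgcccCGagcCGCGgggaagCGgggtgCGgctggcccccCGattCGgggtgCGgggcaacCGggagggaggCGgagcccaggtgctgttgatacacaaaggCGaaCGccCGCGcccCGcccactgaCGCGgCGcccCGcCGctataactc
Slc2a2 (GRCm38.p6 chr3:28697653-28697902, plus strand): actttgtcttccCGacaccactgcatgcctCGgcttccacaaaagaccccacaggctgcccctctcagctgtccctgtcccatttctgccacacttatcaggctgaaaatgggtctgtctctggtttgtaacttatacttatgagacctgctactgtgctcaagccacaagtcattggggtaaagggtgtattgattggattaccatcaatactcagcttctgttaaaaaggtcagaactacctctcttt
Slc12a3 (GRCm38.p6 chr8:94328958-94329207, plus strand): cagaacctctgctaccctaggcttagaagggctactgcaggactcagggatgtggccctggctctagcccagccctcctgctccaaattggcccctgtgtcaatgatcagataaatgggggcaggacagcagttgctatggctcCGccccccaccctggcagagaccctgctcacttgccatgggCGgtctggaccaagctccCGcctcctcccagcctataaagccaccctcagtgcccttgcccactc
Slc34a1 (GRCm38.p6 chr13:55399398-55399647, plus strand): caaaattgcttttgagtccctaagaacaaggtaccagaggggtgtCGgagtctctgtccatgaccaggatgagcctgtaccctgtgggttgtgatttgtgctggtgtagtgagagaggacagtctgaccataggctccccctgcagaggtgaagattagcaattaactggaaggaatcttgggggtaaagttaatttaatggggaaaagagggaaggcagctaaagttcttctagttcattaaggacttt

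The lactate carrier genes Slc16a1 and Slc16a3 and the amino acid carrier gene Slc38a2 held 37, 29 and 30 CpG in this window. Slc2a2, Slc12a3 and Slc34a1 held 2, 3 and 1. The CpG ratios of the former were 1.03, 0.909 and 0.930, above the upper quartile of detected carriers (0.825). Those of the latter were 0.150, 0.134 and 0.0813, under the lower quartile of carriers below background (0.155). The promoters shown are thus extremes of their groups and not typical. The letters GGGCGG on either strand, the core of the GC box, were found in 63.6% of detected carriers and in 37.2% of carriers below background, against 61.1% of all detected genes and 34.3% of all genes below background. TATAAA on either strand was found in 5 of the 88 detected carriers (5.68%) and 12 of the 78 below background (15.4%), against 6.61% of all detected genes and 15.4% of all genes below background. CCAAT on either strand was found in 35.2% of detected carriers and 25.6% of those below background, against 36.3% and 34.8% of all such genes. Over all 27018 promoters of the table, GGGCGG was found in 32.9%, CCAAT in 34.5%, and TATAAA in 3503 promoters. The shares of GGGCGG and TATAAA in carriers were thus close to those of all genes of the same detection, and no difference was tested. None of these 3 motifs contains another, and a match describes only the letters. Detected carriers with little CpG existed too. Slc38a4 had a ratio of 0.172, and Slc7a1 and Slc5a6, both below background, had ratios of 0.863 and 0.822.

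**Figure D2:**
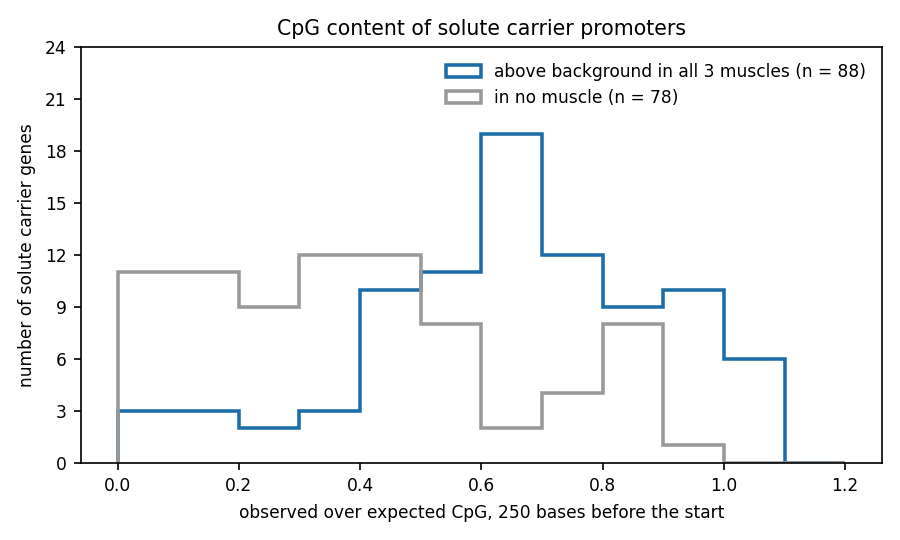
Distribution of the observed over expected CpG ratio in the 250 bases before the start (horizontal axis) for 88 solute carrier genes above background in all 3 muscles (blue) and 78 below it in every muscle (grey), as numbers of genes per bin. The medians were 0.679 and 0.342.

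Of the 8 measured Slc2 sugar carriers 4 were detected in all 3 muscles, and the liver, gut and urate forms were not. Slc2a4 encodes GLUT4, the carrier that insulin and contraction bring to the surface of the fibre, and was at 11.83, 11.88 and 11.86 (mean 11.86 ± 0.03). Its other probe set, also above background in each muscle, was at 8.18, 8.14 and 8.37. Slc2a1, which encodes GLUT1 for basal uptake in many cells, averaged 7.86 ± 0.14, highest in muscle 2 and lowest in muscle 3. Another probe set of Slc2a1, above background in each muscle, had the opposite order, at 6.65, 6.14 and 6.73. Its remaining probe set was at 7.04, 7.22 and 7.05. Slc2a8, for an intracellular hexose carrier, was at 8.03, 8.08 and 7.93. Thus the muscle form and both widely expressed forms were well above background. Slc2a3, the neuronal type GLUT3, was just above background at 5.63, 5.56 and 5.58, and its other 3 probe sets were below it in every muscle. The liver and islet carrier gene Slc2a2, the fructose carrier gene Slc2a5 and the urate carrier gene Slc2a9 were below background throughout, with means of 3.15 ± 0.12, 5.18 ± 0.16 and 4.86 ± 0.28. Slc37a4, which encodes the glucose 6-phosphate carrier of the endoplasmic reticulum, was at 11.06, 10.91 and 10.97. At the highest probe set of each gene, the widest range among the 4 detected Slc2 genes was 0.28, for Slc2a1. The Slc2a1 probe set of opposite order had a range of 0.59.

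The sodium-coupled Slc5 family was mostly below background, with 8 of 11 genes below it in all 3 muscles. Among these were the intestinal glucose cotransporter gene Slc5a1 (3.92 ± 0.27), the myo-inositol carrier gene Slc5a3 (3.24 ± 0.07) and the multivitamin carrier gene Slc5a6 (3.73 ± 0.05). The 3 detected members were the renal glucose carrier gene Slc5a2, the thyroid iodide carrier gene Slc5a5 and Slc5a11, with means of 6.25 ± 0.13, 5.74 ± 0.12 and 5.70 ± 0.24. None of the 3 lay above the stricter background level in all muscles, and the second probe set of Slc5a2 was below background. For scale, of the 75 genes that set the background, 4 passed it in every muscle. The highest was the insulin gene Ins2, at 6.84 ± 0.04. Other carriers best known from organs other than muscle were detected at similarly low levels. Slc22a12 (6.68 ± 0.17), Slc34a2 (6.05 ± 0.13), Slc14a2 (5.67 ± 0.14), Slc16a8 (5.64 ± 0.05) and Slc26a8 (5.55 ± 0.22) all missed the stricter level in at least 1 muscle. For Slc22a12 this was muscle 2 alone.

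**Figure D3:**
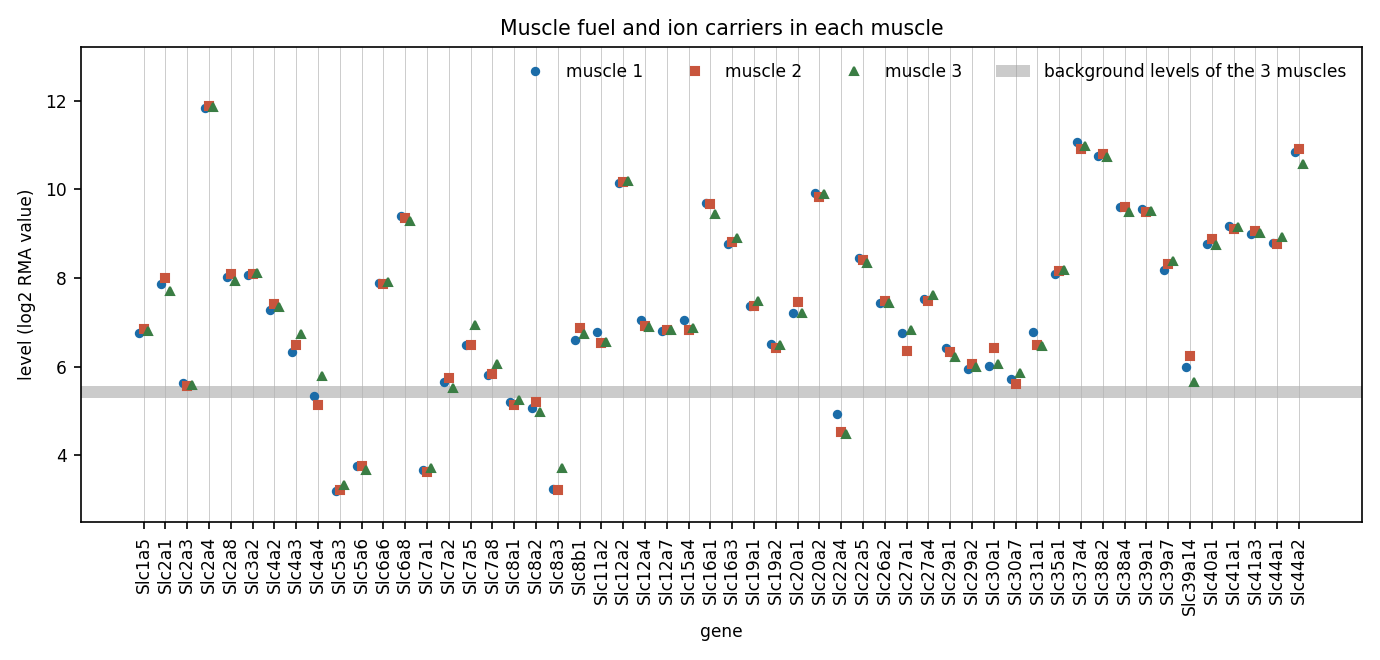
Levels (vertical axis, log2 RMA value) of the 54 measured genes of a list of fuel and ion carriers, 1 marker per muscle, with the background levels of the 3 muscles as a grey band. Of the 54, 45 passed background throughout, 7 stayed below it throughout, and Slc4a4 and Slc7a2 did neither.

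Genes around glucose uptake were detected with few exceptions. Of 24 measured genes of insulin signalling, GLUT4 traffic and glucose phosphorylation, 23 were detected in all 3 muscles. Among them were the signalling adaptor Irs1 (11.31, 11.33 and 11.32), the small GTPases Rab10 (11.50, 11.47 and 11.45) and Rac1 (11.11, 11.17 and 11.13), and Hk2, the hexokinase of muscle (10.57, 10.57 and 10.61). The widest range among these 4 genes was 0.06, for Rac1. Over all 23 detected genes of the list it was 0.45, for Hk1, at 7.27, 6.82 and 6.89. The insulin receptor gene Insr was the exception, at 5.18, 4.86 and 5.27, below background throughout.

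Monocarboxylate carriers move lactate, pyruvate and ketone bodies with a proton. Slc16a1 encodes MCT1, which is known for lactate uptake in oxidative fibres, and was at 9.70, 9.68 and 9.43. Slc16a3 encodes MCT4, known for lactate export from glycolytic fibres, and was at 8.76, 8.81 and 8.90. Muscle 3 was the lowest of the 3 for Slc16a1 and the highest for Slc16a3, with ranges of 0.27 and 0.15. Of the 11 endothelial markers 4 were lowest in muscle 3 and 3 were highest there, and the part of endothelium in these levels was not tested. Slc16a6 and Slc16a11 were detected as well, with means of 7.67 ± 0.11 and 8.01 ± 0.17, while Slc16a7 (MCT2) and Slc16a4 were below background with means of 3.86 ± 0.24 and 4.77 ± 0.33. Their chaperones and substrate enzymes were present in all muscles: basigin (Bsg), which brings MCT1 and MCT4 to the membrane, was at 11.22, 11.18 and 11.23, embigin (Emb) at 6.25, 6.62 and 6.37 and the lactate dehydrogenase gene Ldha at 13.15, 13.18 and 13.13.

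Creatine, taurine and carnitine carriers stood out from families that were otherwise largely below background. The creatine carrier gene Slc6a8 was at 9.39, 9.34 and 9.29, and its second probe set at 7.91, 7.84 and 8.01. The taurine carrier gene Slc6a6 was at 7.89, 7.86 and 7.90 and the glycine carrier gene Slc6a9 at 7.06, 6.97 and 7.16. Of the 15 measured Slc6 genes 11 were below background in every muscle. They included the carriers of noradrenaline (Slc6a2), dopamine (Slc6a3) and serotonin (Slc6a4), with means of 4.88 ± 0.32, 5.23 ± 0.27 and 4.55 ± 0.21. Slc22a5 encodes OCTN2, which brings carnitine into the fibre for fatty acid oxidation, and was at 8.45, 8.41 and 8.35, although its second probe set was below background at 4.78, 4.56 and 4.70. Its neighbour in the family, the ergothioneine carrier gene Slc22a4, was below background at 4.92, 4.52 and 4.47. Of the 18 Slc22 genes 12 were below background in every muscle, among them the renal organic ion carriers Slc22a2, Slc22a7 and Slc22a8.

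Fatty acid transport genes were detected in part. Slc27a1 encodes FATP1, the form of muscle and fat, and was at 6.77, 6.35 and 6.82, lowest in muscle 2. Slc27a4 (FATP4) was at 7.51, 7.47 and 7.62, and the liver forms Slc27a2 and Slc27a5 were below background with means of 4.92 ± 0.10 and 3.67 ± 0.09. All 10 measured partner genes of fatty acid uptake were detected, with the scavenger receptor Cd36 at 10.26, 10.37 and 10.18, the fatty acid binding protein Fabp3 at 11.81, 11.86 and 11.91 and lipoprotein lipase (Lpl) at 12.52, 12.67 and 12.71. Choline carriers of the Slc44 family were split: Slc44a1 and Slc44a2 were at 8.79, 8.76 and 8.92 and at 10.84, 10.92 and 10.57, and Slc44a3 and Slc44a4 were below background.

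Neutral amino acid carriers of the Slc38 family were detected in 5 of 6 cases. Slc38a2 encodes SNAT2, a sodium-coupled carrier that responds to amino acid supply, and was at 10.74, 10.79 and 10.72. Slc38a4 was at 9.60, 9.61 and 9.49, the glutamine carrier gene Slc38a3 at 7.76, 7.71 and 7.91 and Slc38a10 at 9.76, 9.74 and 9.73. Slc38a10 had the most probe sets of any carrier here, 7, 6 of them above background throughout and 1 below it throughout. The widest range among these genes was 0.20, for Slc38a3, while Slc38a1 varied by 0.36, lowest in muscle 3. Slc38a5 was below background throughout (4.54 ± 0.27).

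The large neutral amino acid exchanger that brings leucine into the fibre is a pair of proteins, the heavy chain Slc3a2 and a light chain such as Slc7a5 (LAT1) or Slc7a8 (LAT2). Slc3a2 was at 8.07, 8.09 and 8.11, Slc7a5 at 6.48, 6.49 and 6.93 and Slc7a8 at 5.81, 5.84 and 6.05. Slc7a5 was 0.44 above the mean of the other muscles in muscle 3, while the heavy chain had a range of 0.04. The glutamine exchanger gene Slc1a5 was at 6.75, 6.85 and 6.80 and Slc7a6, which exchanges cationic for neutral amino acids, at 6.96, 7.11 and 6.72. The cationic amino acid carriers were low. Slc7a1 was below background at 3.67, 3.62 and 3.71, and Slc7a2, at 5.65, 5.75 and 5.51, exceeded it in 2 muscles. The cystine carrier gene Slc7a11 was below background at 3.81, 4.56 and 4.47. Slc1a4, a carrier of serine and alanine, was at 6.29, 6.05 and 6.16, and Slc7a4 at 6.97, 7.10 and 7.23. The glutamate carriers Slc1a1 and Slc1a2 were below background. Slc3a1 and Slc7a9, the pair that takes up cystine in the kidney, were both below background, with means of 3.58 ± 0.29 and 3.92 ± 0.15.

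Of 8 chloride cotransporter genes 4 were detected, the widely expressed forms, while the renal and neuronal forms and Slc12a8 were not. Slc12a2 encodes NKCC1, which brings sodium, potassium and chloride into the cell and helps set its volume, and was at 10.15, 10.15 and 10.19 in its highest probe set. The potassium-chloride cotransporter genes Slc12a4 and Slc12a7 were at 7.05, 6.91 and 6.89 and at 6.80, 6.82 and 6.82. The other probe set of Slc12a7 had a range of 0.60 and was above background in 2 muscles. The renal forms Slc12a1 and Slc12a3 and the neuronal form Slc12a5 were below background, with means of 3.14 ± 0.16, 2.88 ± 0.05 and 4.92 ± 0.07. Slc12a8 was below it too (3.84 ± 0.25). Phosphate carriers of the Slc20 family were both detected, with Slc20a1 at 7.22, 7.45 and 7.21 and Slc20a2 at 9.92, 9.83 and 9.89, whereas the renal phosphate carrier gene Slc34a1 was below background (4.43 ± 0.20).

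The sodium-calcium exchangers of the plasma membrane in the Slc8 family were not above background in any muscle. Slc8a1, Slc8a2 and Slc8a3, the sodium-calcium exchangers of which Slc8a3 is known from skeletal muscle, were at 5.20, 5.12 and 5.24, at 5.06, 5.20 and 4.98 and at 3.23, 3.22 and 3.72, all below background. All 3 probe sets of Slc8a1 were below it. The mitochondrial exchanger gene Slc8b1 was detected at 6.61, 6.86 and 6.73, and the potassium-dependent exchanger gene Slc24a3 at 7.48, 7.51 and 7.47. Levels below background do not show that a gene was silent. Anion exchanger genes Slc4a2 and Slc4a3 were at 7.27, 7.42 and 7.35 and at 6.33, 6.48 and 6.75, the sulfate carrier gene Slc26a2 at 7.45, 7.48 and 7.42 and the organellar sodium-proton exchanger gene Slc9a8 at 7.27, 7.27 and 7.27. Of the 3 sodium-proton exchangers measured, Slc9b1 and Slc9b2 were below background. The other 2 detected genes of that family name, Slc9a3r1 and Slc9a3r2, encode scaffold proteins (means of 8.09 ± 0.04 and 7.75 ± 0.04). Slc4a1ap, the third gene that is no carrier, was detected too (7.06 ± 0.02). Of 8 measured genes listed for the sodium pump that powers sodium-coupled carriers, 7 were detected. The subunit Atp1b2 was at 11.40, 11.47 and 11.50 and the regulator Fxyd1 (phospholemman) at 12.16, 12.24 and 12.20. All 8 were Atp1b or Fxyd genes. No gene of the catalytic Atp1a subunit was among them, so the detection of that part of the pump is not known here.

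Most zinc carriers, 15 of 18, were detected, and 3 were below background. Most Slc30 proteins move zinc out of the cytosol and most Slc39 proteins move it in, though not every member named here need do so. Slc30a9 was at 10.15, 10.18 and 10.10, Slc30a4 averaged 9.07 ± 0.06, Slc30a5 was at 7.78, 7.88 and 7.68, and only Slc30a2 of the 8 Slc30 genes was below background, with a mean of 4.47 ± 0.21. Slc39a1 was at 9.56, 9.48 and 9.52 and Slc39a7, which releases zinc from the secretory pathway, at 8.19, 8.31 and 8.39. The intestinal form Slc39a4 and Slc39a8 were below background. Slc39a14 had the widest range among zinc carriers, at 6.00, 6.24 and 5.65, lowest in muscle 3. The other detected zinc carriers were Slc30a1, Slc30a3, Slc30a6, Slc30a7, Slc39a3, Slc39a6, Slc39a9, Slc39a11 and Slc39a13. Slc30a1, the exporter at the plasma membrane, was at 6.02, 6.43 and 6.05, and Slc39a13, a carrier of the secretory pathway, at 7.29, 7.27 and 7.32. The zinc-binding metallothioneins Mt1 and Mt2 were at 9.92, 9.86 and 9.86 and at 9.34, 9.34 and 9.31.

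Iron, copper and magnesium carriers were detected in 6 of 8 cases. Slc40a1 encodes ferroportin, the iron exporter, which is also strongly expressed by macrophages, and was at 8.76, 8.89 and 8.74. Its second probe set, also above background in each muscle, was at 6.04, 5.70 and 6.23, lowest in muscle 2, with a range of 0.53. Slc11a2 (DMT1), which brings iron out of the endosome, was at 6.78, 6.54 and 6.55, while Slc11a1, its relative of macrophages, was at 5.31, 5.39 and 5.48, above background in 2 muscles. The copper carrier gene Slc31a1 was at 6.77, 6.48 and 6.47 and the magnesium carrier genes Slc41a1 and Slc41a3 at 9.18, 9.11 and 9.14 and at 8.99, 9.06 and 9.02. Of 14 measured genes of metal handling 11 were detected, with the transferrin receptor Tfrc at 11.48, 11.45 and 11.44 and ferritin heavy chain Fth1 at 12.95, 13.02 and 12.88. The haem carrier gene Slc48a1 was at 8.85, 8.79 and 8.87.

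Nucleotide sugar carriers feed glycosylation in the endoplasmic reticulum and Golgi, which in muscle includes the glycans of dystroglycan. Slc35a1, the carrier of CMP-sialic acid, was at 8.09, 8.15 and 8.17, Slc35b1 at 9.28, 9.23 and 9.25 and Slc35b2, the carrier of the sulfate donor PAPS, at 8.13, 8.03 and 8.14. Slc35a4 was at 8.49, 8.63 and 8.57 and Slc35e1 at 8.16, 8.05 and 8.03. The widest range among these 5 was 0.13, for Slc35a4, taken before its values were rounded. Over all 15 detected Slc35 genes it was 0.37, for Slc35c2, at 6.77, 6.80 and 7.14. The other detected members were Slc35a2, Slc35a5, Slc35b3, Slc35b4, Slc35c1, Slc35c2, Slc35d1, Slc35e4, Slc35f5 and Slc35f6. Slc35a2, the carrier of UDP-galactose, was at 6.53, 6.23 and 6.47 and Slc35c1, the carrier of GDP-fucose, at 5.48, 5.74 and 5.69, and both missed the stricter level in at least 1 muscle. Slc35f4 alone of the 18 was below background in every muscle (3.30 ± 0.14). Nucleoside carriers Slc29a1, Slc29a2 and Slc29a3 were detected, at 6.41, 6.32 and 6.22, at 5.95, 6.05 and 5.98 and at 6.81, 6.63 and 6.63, and none of the 3 reached the stricter background level in all muscles. Among vitamin carriers, the folate carrier gene Slc19a1, the thiamine carrier gene Slc19a2 and the vitamin C carrier gene Slc23a2 were at 7.36, 7.37 and 7.49, at 6.52, 6.42 and 6.49 and at 7.30, 7.32 and 7.20.

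A pair of carriers best known from other cells was near background. The anion exchanger of red cells, Slc4a1, was at 5.13, 5.53 and 5.51, above background in muscle 2 alone. The vesicular acetylcholine carrier gene Slc18a3, a gene of motor nerve endings, whose cell bodies lie outside the muscle, was at 5.22, 5.39 and 5.52, above it in muscle 2 alone.

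Small families and scattered members made up the other detected carriers. Slc47a1 encodes MATE1, a proton-coupled exporter of organic cations known from kidney and liver, and was at 8.77, 8.75 and 8.84. The lysosomal amino acid carrier genes Slc66a1 and Slc15a4 were at 7.77, 7.76 and 7.78 and at 7.06, 6.83 and 6.87, and Slc66a2 at 8.24, 8.10 and 8.07. The widest range among these 4 was 0.24, for Slc15a4. Slc26a6, an anion exchanger, was at 7.40, 7.36 and 7.40, Slc12a9 at 6.87, 6.93 and 6.94 and Slc43a3, a purine base carrier, at 6.87, 6.87 and 6.88. Slc33a1, which carries acetyl-CoA into the endoplasmic reticulum, was at 6.67, 6.46 and 6.41, Slc46a3 at 6.44, 6.66 and 6.25 and the riboflavin carrier gene Slc52a3 at 5.50, 5.44 and 5.93. Slc17a9, the vesicular ATP carrier, was at 6.35, 6.21 and 6.30, and Slc22a17, Slc22a18 and Slc22a23 had means of 6.65 ± 0.06, 6.24 ± 0.17 and 7.04 ± 0.09. Of the genes in this group Slc17a9, Slc22a17, Slc22a18, Slc33a1, Slc46a3 and Slc52a3 were not above the stricter level in all muscles. Slc6a17, Slc10a3, Slc31a2 and Slc37a3, detected as well, missed it too.

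Among the 97 carriers below background in every muscle were the intestinal and renal peptide carriers Slc15a1 (2.80 ± 0.07) and Slc15a2 (5.09 ± 0.08), the bile acid carriers Slc10a1 (3.86 ± 0.05) and Slc10a2 (2.63 ± 0.09), and the citrate and dicarboxylate carriers Slc13a2 (5.25 ± 0.20) and Slc13a3 (4.72 ± 0.11). The vesicular carriers of neurons Slc17a6 (3.84 ± 0.23) and Slc32a1 (5.21 ± 0.09), the pendrin gene Slc26a4 (4.16 ± 0.06) and the cochlear prestin gene Slc26a5 (3.26 ± 0.03) were also below it. A low level of a single probe set can reflect that probe set as well as the gene.

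The 16 carriers above background in 1 or 2 muscles were Slc1a6, Slc2a10, Slc4a1, Slc4a4, Slc4a8, Slc7a2, Slc7a7, Slc11a1, Slc18a3, Slc22a6, Slc27a3, Slc35a3, Slc35g3, Slc37a2, Slc41a2 and Slc46a1. Of these, 11 exceeded it in 1 muscle and 5 in 2. Slc4a4 encodes the sodium bicarbonate cotransporter NBCe1 and was at 5.33, 5.13 and 5.78. Slc41a2, a magnesium carrier gene, was at 5.54, 4.97 and 5.26, and Slc2a10, a glucose carrier gene, at 5.29, 5.59 and 5.17. Each of these straddled the background level, so their detection rests on where it was set.

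The levels of solute carriers differed little between the 3 muscles. Over the 116 detected genes the median SD was 0.0890, a factor of 1.06, against 0.0839 over all 8050 detected genes. The spread fell with level in both. With all detected genes cut by level into 3 equal parts, the 63, 32 and 21 carriers in the lower, middle and upper part had median SDs of 0.132, 0.0661 and 0.0428, against 0.130, 0.0868 and 0.0498 for all genes of the same parts. The range between muscles was under 0.1 for 32 of the 116 carriers (27.6%), against 28.8% of all detected genes. Muscle 1, muscle 2 and muscle 3 were the muscle farthest from the others for 42, 32 and 42 carriers, or 36.2%, 27.6% and 36.2%, against 29.8%, 30.9% and 39.3% of all detected genes.

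**Figure D4:**
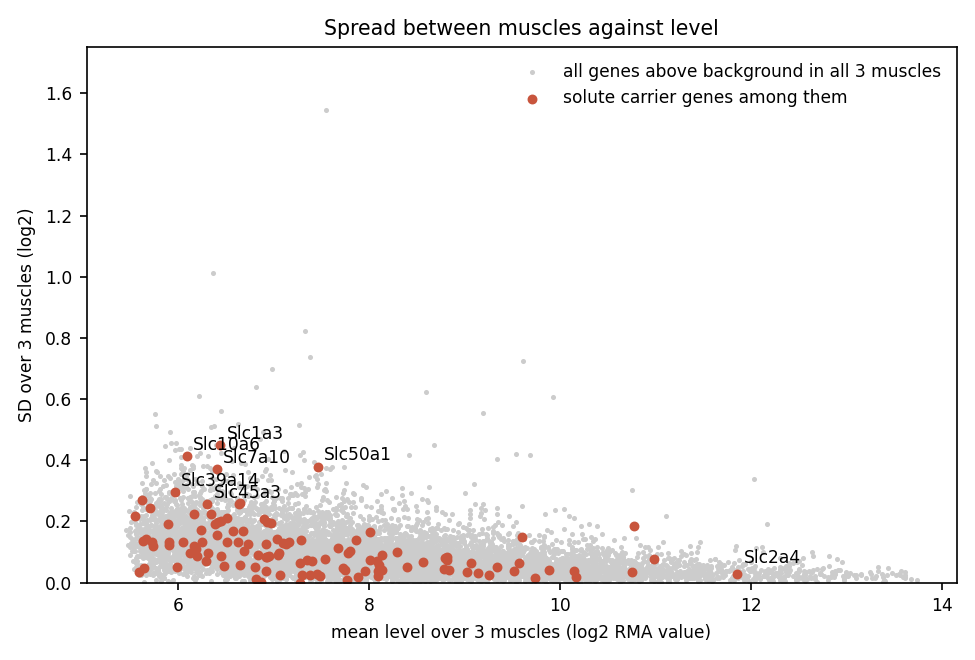
SD over the 3 muscles (vertical axis, log2) against mean level (horizontal axis, log2 RMA value) for the 8050 genes above background in all 3 muscles (grey) and the 116 solute carrier genes among them (red), with the 6 of widest range and Slc2a4 named. The carriers lie within the cloud of all genes, and Slc2a4 has an SD of 0.03.

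No carrier had a range of 1, a 2-fold difference, at the level of genes, against 0.446% of the 8743 genes above background in at least 1 muscle. A range of at least 0.5 was found for 10 of the 132 carriers above background in at least 1 muscle (7.58%), against 6.20% of all such genes. This count was 8 without muscle 1, 1 without muscle 2 and 5 without muscle 3. The range of a probe set over 2 muscles cannot exceed that over 3, so a lower count there follows in part from the rule. What is here called limma's variance test is an F test of each gene's variance against limma's prior variance for genes of like level. By limma's variance test 0 of the 132 carriers passed at an adjusted p of 0.05, against 0.0686% of the 8743 genes. By the same test 6 had an unadjusted p under 0.05 (4.55%, against 4.90% of the 8743). The smallest adjusted p of a carrier was 0.699.

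Of the 10 carriers with a range of at least 0.5, 4 were above background in only 1 or 2 muscles. Slc27a3, a fatty acid transport protein gene, was at 5.12, 5.80 and 4.92 and exceeded background in muscle 2 alone. Slc1a3, the glutamate carrier GLAST of glia, was at 6.06, 6.94 and 6.33, highest in muscle 2, but its second probe set was at 6.02, 6.12 and 5.96 and the remaining one was below background. Of the 5 measured Schwann cell markers 3 (Mbp, Sox10 and Egr2) were highest in muscle 2 as well, Pmp22 was lowest there and S100b was highest in muscle 3, and their part in the level of Slc1a3 was not tested. Neither gene passed limma's variance test (adjusted p of 0.839 for Slc1a3 and 0.973 for Slc27a3). Slc10a6, a carrier of sulfated steroids, was at 5.98, 5.75 and 6.55, highest in muscle 3. Slc7a10, the neutral amino acid carrier Asc-1 of adipocytes and neurons, was at 6.38, 6.04 and 6.79 and also highest in muscle 3. Of the 6 measured adipocyte markers 3 (Retn, Cidec and Lipe) were highest in muscle 3 and 3 (Adipoq, Lep and Pparg) were lowest there. The part of adipocytes in the level of Slc7a10 was not tested. Slc50a1, a sugar carrier of the SWEET family, was the best measured of the wide-ranging genes, at 7.78, 7.04 and 7.58, lowest in muscle 2, with an adjusted p of 0.759 in limma's variance test. Slc4a4, Slc39a14, Slc1a6, Slc41a2 and Slc45a3 made up the rest of the 10, with ranges from 0.50 to 0.66.

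Taking 1 probe set per gene hid the widest difference among the carriers. Slc12a2, whose highest probe set varied by 0.04 between muscles, had 2 further probe sets above background in every muscle. One was at 6.16, 6.42 and 8.09, and the other at 8.02, 7.99 and 8.73. Muscle 3 was thus above the mean of muscles 1 and 2 by 1.80 (3.49-fold) and by 0.72 (1.65-fold) in these probe sets, and by 0.03 in the highest one. Without muscle 3 the remaining pair differed by 0.26 and 0.03. Tested probe set by probe set over 13170 probe sets, in an analysis added after the data were seen, limma's variance test gave adjusted p-values of 0.0631 and 0.383, so neither passed. The first of these adjusted p-values of limma's variance test was 0.0283 after quantile normalization. It was 0.0335 without probe sets named _x_at, _s_at or _a_at, and ran up to 0.0897 over the alternatives. Its range was the 15th widest of the 13170. In all, 1 of the 192 carrier probe sets above background in at least 1 muscle had a range of at least 1 (0.521%, against 0.812% of all probe sets), and 22 had a range of at least 0.5 (11.5%, against 8.01%). By limma's variance test 0 of the 192 passed, against 0.0911% of all, and 9 had an unadjusted p under 0.05 (4.69%, against 4.94%).

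**Figure D5:**
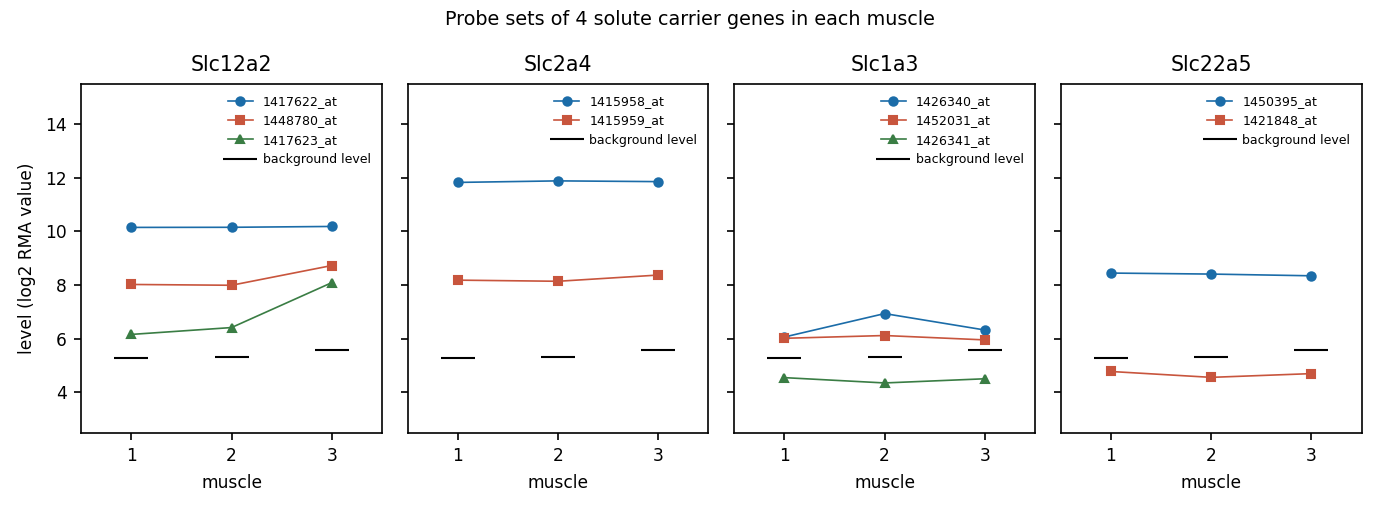
Levels (vertical axis, log2 RMA value) of every probe set of Slc12a2, Slc2a4, Slc1a3 and Slc22a5 in muscles 1 to 3 (horizontal axis), with the background level of each muscle as a black dash; lines join values of 1 probe set and show no order of the muscles. For Slc12a2 the lower probe sets rise apart in muscle 3, at 8.09 and 8.73, while the highest stays between 10.15 and 10.19.

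Probe sets of 1 gene often disagreed on detection itself. Of the 84 carriers with several probe sets, 21 had at least 1 above background in all muscles and at least 1 below it in all, against 35.8% of the 4958 genes with several probe sets. Among them were Slc2a3, Slc6a6, Slc20a1, Slc22a5, Slc23a2 and Slc38a10. Slc20a1 was at 7.22, 7.45 and 7.21 in 1 probe set and at 4.14, 3.95 and 3.62 in the other. For Slc23a2 the values were 7.30, 7.32 and 7.20, and 3.78, 3.99 and 4.29 in the other probe set. The remaining 145 carriers had a single probe set, so no such comparison could be made for them. With the mean over probe sets in place of the highest, 104 of the 229 carriers were detected in all 3 muscles, against 7386 of all 12394 genes. Probe sets of near-identical copies cannot be told apart with certainty, which touches the pairs Slc5a4a and Slc5a4b, Slc6a20a and Slc6a20b, and Slc22a29 and Slc22a30, all below background.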

How the data were processed

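RNA of 3 normal muscle samples was measured on Affymetrix mouse arrays. The deposited values are log2 signals made by the authors with RMA, per the submitters' processing notes; its version is not given in the sources used here. Total RNA was extracted with Trizol and labelled from 500 ng, per the labels' protocols. Tumour arrays were not analysed here.

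Of 22690 probe sets, 20393 name 1 gene in the platform annotation and were kept; 691 that name several were left out, 3 of them with a solute carrier gene. All 229 genes were found in RefSeq (GRCm38.p6) by gene identifier. Each gene was read from whichever of its probe sets averaged highest. Detected means above the 95th percentile, per muscle, of 100 probe sets of 75 genes restricted to other organs. Variance between muscles was tested with a 1-sided F test built on limma 3.58.1 in R 4.3.3. Each gene's variance was set against the eBayes prior variance (trend and robust), with the largest prior degrees of freedom used for every gene. Benjamini-Hochberg adjustment ran over all genes above background in at least 1 muscle, with a threshold of 0.05. The test was checked on simulated data.

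The solute carriers, the gene lists and the sequences shown were chosen with earlier results of these data known. Named genes were the listed fuel and ion carriers, up to 3 detected genes of each family, the 10 widest ranges, genes above background in 1 or 2 muscles, and genes whose probe sets disagree; others were chosen after their values were seen. Alternatives were the scaling, the gene level, the probe sets used, the background level, the filter and leaving out each muscle. The test of single probe sets was added after seeing the data.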

Additional observations from a re-analysis of the deposited data

How the results depend on the processing

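With the 99th percentile as background, 72 carriers were detected in all 3 muscles in place of 116, and 4 in place of 10 had a range of at least 0.5. Over all 12394 genes that setting left 6151 detected in place of 8050. With the median of each array as background the carrier counts were 90 and 6, and 6938 of all 12394 genes were detected. With no filter on low values all 229 carriers were counted, and 22 had a range of at least 0.5. The background level and the filter set how many carriers are counted, 132 of them in the main setting. These counts of wide ranges therefore cannot be compared with each other. No share over all genes stands beside them, so they show nothing particular to the carriers. With the mean over probe sets 104 of 229 carriers were detected, against 7386 of 12394 genes. Leaving out probe sets named _x_at, _s_at or _a_at kept 203 carriers with a probe set. Of these 94 were detected and 7 lost detection, against 6252 of 10531 genes detected. That last setting left 11 carriers in place of 21 whose probe sets disagreed, with fewer probe sets to compare. Leaving out 1 muscle at a time gave 116 to 120 detected carriers, 97 to 103 below background throughout, 0 with a range of at least 1, 1 to 8 with a range of at least 0.5, 0 past limma's variance test, a median SD of 0.0576 to 0.0860 and 22 to 23 carriers whose probe sets disagreed. By single probe sets, limma's variance test called 1 carrier probe set, of Slc12a2, after quantile normalization, in place of 0. It also called 1 without probe sets named _x_at, _s_at or _a_at. The cause was not tested. Over all alternatives, 84 of 1055 values of named genes lay on the other side of background, and 44 of 432 family counts moved. No paired analysis was possible because the samples form 1 group. Arrays give no read depth; levels within 0.5 of background are the least certain.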
